A study of Mus musculus with 4 samples.

Results

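Transcripts of the proteasome, the cell's main machine for breaking down proteins, were described in CD4 T cells of the mouse colon. The members are the genes whose symbol starts with Psma, Psmb, Psmc, Psmd, Psme, Psmf or Psmg followed by a digit, which gave 50 of the 25724 genes in the data. One of them, Psmc3ip, meets the rule by name only, since it encodes a factor of meiotic recombination, and it was kept out of the sums by role. The cells came from the colon lamina propria, the tissue layer under the gut epithelium, of male B6 mice aged 6 weeks, and were profiled by inDrops, a droplet method of single-cell RNA sequencing. They had been sorted for CD45, the T cell receptor beta chain and CD4, and the labels give 4 samples in the single group Btheta_colon, all under 1 library name. Those samples share 1 table of counts whose barcodes name no sample, so every value below is 1 pooled measurement without a replicate, and no test or p-value is possible.

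The proteasome has a barrel-shaped core particle and regulatory particles that cap its ends. The outer rings of the core are built from the alpha subunits (Psma genes), and the inner rings from the beta subunits (Psmb genes), of which Psmb5, Psmb6 and Psmb7 encode the constitutive catalytic sites. In immune cells, and in other cells exposed to interferon gamma, Psmb8, Psmb9 and Psmb10 encode immunosubunits that take the places of Psmb5, Psmb6 and Psmb7, and the resulting immunoproteasome supplies many of the peptides shown on MHC class I. The Psmc genes encode the ATPases that unfold substrates, the other Psmd genes the ubiquitin receptors, the deubiquitinase and the scaffold of the regulatory particle, and the Psme genes other activators of the core. Psmf1 encodes a regulator first described as an inhibitor, and Psmg1 to Psmg4, Psmd5, Psmd9 and Psmd10 encode chaperones of assembly.

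A total of 1050 of 1985 barcodes passed the filter of at least 500 counts, at least 200 detected genes and under 20% mitochondrial counts. These cells held 1549040 counts, with a median of 1235.5 and a range of 501 to 13023 per cell. At least 1 of the 6 T cell markers was detected in 90.8% of them, with 92.4% or more in 4 of the gates described next and 83.3% in the gate with no gate gene. Counts of 7 epithelial markers lay almost wholly in that last gate, with 2579 counts there and 3 to 10 in each other gate. The same held for 5 stromal markers, with 545 counts there and 3 to 22 elsewhere, while the 2 erythroid markers had 0 counts in every gate.

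The cells were gated by detection of at least 1 count. Foxp3, the defining transcription factor of regulatory T cells, was detected in 332 cells, of which 201 also had Gata3, a transcription factor of type 2 helper and of many tissue regulatory T cells, and 131 did not. Among the 718 cells without Foxp3, 119 had Tbx21, the regulator of type 1 helper cells, Ifng, their signature cytokine, or Nkg7, a gene of cytotoxic granules. These are called type 1+ cells, and 89 of them had Nkg7, 35 Tbx21 and 25 Ifng, while 53 also had Gata3. A further 318 had Gata3 alone and 281 had none of these genes. Of the 332 Foxp3+ cells, 41 also had Tbx21, Ifng or Nkg7, and these stayed in the Foxp3+ gates. Detection in droplet data misses transcripts, so a cell without a count of a gate gene may still express it. Median counts per cell were 1415 and 1165 in the Foxp3+ gates with and without Gata3, 1340.5 with Gata3 alone, 1179 in type 1+ cells and 1135 with no gate gene.

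The members together gave 8277 counts, or 5343 counts per 1000000 (CPM), in the 1050 cells. The 95% interval from Poisson counting was 5229 to 5460 CPM, and intervals here and below are 95% intervals of counting error only. No member count was found in 20 cells, or 1.90% (1.17% to 2.93%). A total of 49 members had counts, 41 of them at least 50, and the median was 150 counts. The member without a count was Psma8, which encodes an alpha subunit of the testis, and its interval ran from 0 to 2.38 CPM. Psmb11, which encodes a catalytic subunit of the thymic cortex, had 16 counts in 15 cells.

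Counts of a member were bunched in cells. Of the 49 members with counts, 48 were seen in fewer cells than Poisson counts spread by cell depth would give. Psmb8 had 533 counts in 305 cells, against 396 cells for a Poisson spread, and Psme1 had 536 counts, also in 305 cells. Among the 41 members with at least 50 counts, a detecting cell held 1.19 to 1.85 counts on average, and the cell with the most held at most 12% of the counts of a member, a share reached by Psme4. The Poisson intervals are therefore too narrow for differences between sets of cells. Whether molecular identifiers were collapsed before counting is not given in the sources used here.

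Summed over all members, the level was similar in the 5 gates. It was 5314 CPM (5069 to 5569) in Foxp3+ Gata3+ cells, 5493 CPM (5159 to 5843) in Foxp3+ Gata3- cells and 5213 CPM (5009 to 5423) in Foxp3- Gata3+ cells. It was 5868 CPM (5505 to 6248) in Foxp3- type 1+ cells and 5233 CPM (5010 to 5463) in Foxp3- cells with no gate gene. The type 1+ cells thus had the highest sum, and its interval overlapped those of both Foxp3+ gates but not those of Foxp3- Gata3+ cells or of cells with no gate gene. Within a gate, single cells ranged from 0 to at most 19.2 member counts per 1000 counts, and the medians of the gates ran from 4.79 to 5.28.

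**Figure D1:**
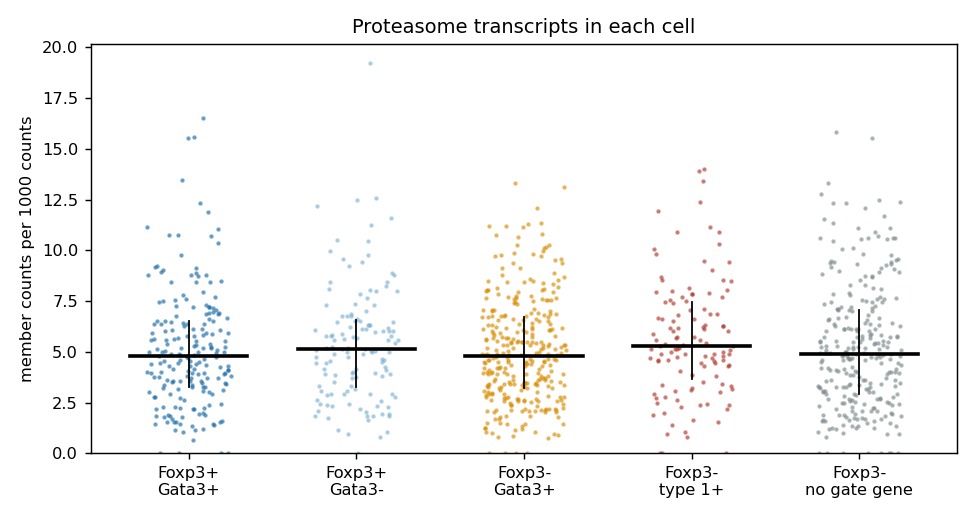
Member counts per 1000 counts (y axis) in each kept cell (points) of the 5 gates (x axis), with the median as a thick line and the middle 50% of cells as a thin one. The medians lie between 4.79 and 5.28, and cells of every gate spread from 0 upward.

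The gates were set against each other in 5 comparisons, which share cells, so their ratios are not independent of each other. The log2 ratio of summed CPM was 0.01 (-0.05 to 0.08) for Foxp3+ against Foxp3- cells and -0.05 (-0.16 to 0.07) for Gata3+ against Gata3- cells within Foxp3+ cells. It was -0.01 (-0.09 to 0.08) for Gata3+ cells against cells with no gate gene, both without Foxp3. Type 1+ cells were higher, by a log2 ratio of 0.17 (0.05 to 0.28) against cells with no gate gene and of 0.13 (0.02 to 0.23) against Foxp3+ cells. With each cell thinned to 500 counts, the first of these was -0.05 in one random draw and 0.05 to 0.26 in 10 further draws, so it did not keep its direction in every draw. The second was 0.02 in that draw and 0.02 to 0.23 in the further ones. With each gene counted at most once per cell, they were 0.06 (-0.07 to 0.20) and 0.08 (-0.06 to 0.21). Depth also moved with the sum itself: cells with 2000 or more counts had 5865 CPM, those with 1000 to 1999 had 5068 CPM and those with 500 to 999 had 5126 CPM.

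By role, the alpha ring was the steadiest. Its 7 measured genes, which form the gated entry to the core, summed to 920 to 990 CPM in the 5 gates, and all 5 comparisons gave log2 ratios between -0.10 and 0.07 whose intervals held 0. None of the alpha genes differed by 1.5-fold in any comparison among those with at least 50 counts over both sides. Psma4 came nearest, with 146 CPM in Foxp3- Gata3+ cells and 98.3 CPM in cells with no gate gene, a log2 ratio of 0.58 (-0.01 to 1.18). The assembly chaperones likewise lay between 180 and 217 CPM in every gate.

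The 3 immunosubunits summed to 697 CPM (576 to 836) in type 1+ cells and 605 CPM (537 to 679) in Foxp3- Gata3+ cells. They summed to 483 CPM (411 to 564) in Foxp3+ Gata3+ cells, 490 CPM (394 to 603) in Foxp3+ Gata3- cells and 431 CPM (369 to 500) in cells with no gate gene. Both Foxp3- gates with a gate gene thus stood above the gate without one, and the Foxp3+ gates lay between. The interval of type 1+ cells overlapped that of Foxp3+ Gata3- cells but not that of Foxp3+ Gata3+ cells. The gate with no gate gene also stood apart in other measures. Naive T cell markers were at 776 CPM there and 92.6 to 325 CPM in the other gates. Mitochondrial genes made up 5.93% of its counts against 4.25% to 4.77%. Their part in the differences was not tested. Against cells with no gate gene, the log2 ratio was 0.69 (0.34 to 1.04) for type 1+ cells and 0.49 (0.21 to 0.77) for Gata3+ cells. Type 1+ cells were also above Foxp3+ cells, by 0.52 (0.19 to 0.85). Foxp3+ against Foxp3- cells gave -0.19 (-0.41 to 0.03), and Gata3+ against Gata3- cells within Foxp3+ cells gave -0.02 (-0.40 to 0.37).

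The size of the Gata3 contrast depended on which cells and counts entered. Leaving out 23 cells with at least 3 counts of markers of other cell types lowered it to 0.26 (-0.02 to 0.55), and counting each gene at most once per cell lowered it to 0.12 (-0.24 to 0.47). The contrast of type 1+ cells with no gate gene was 0.49 (0.13 to 0.85) and 0.49 (0.05 to 0.92) under these settings, and in 10 draws of thinning it ran from 0.48 to 0.87. Without 56 cells with cycling markers it was 0.82 (0.45 to 1.19). Cycling markers were more abundant in type 1+ cells, at 565 CPM, than in the other gates, at 239 to 414 CPM, and dissociation stress genes were less abundant, at 6896 CPM against 7274 to 8355 CPM.

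**Figure D2:**
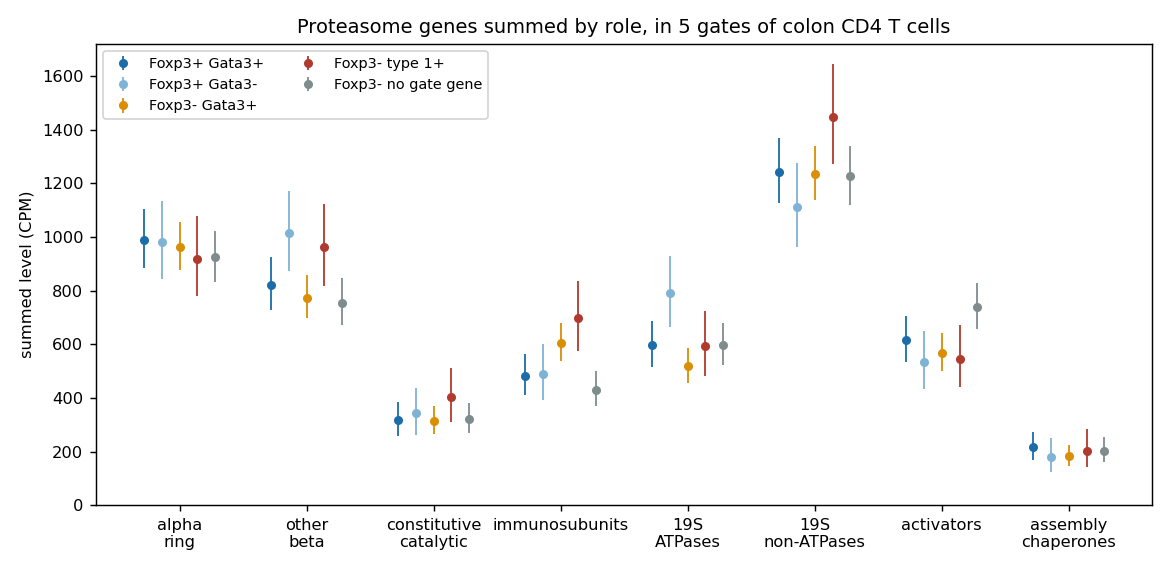
Summed level in CPM (y axis, from 0) of each role group of proteasome genes (x axis, 19S being the regulatory particle) in the 5 gates, with 95% Poisson intervals. Immunosubunits reach 697 CPM in type 1+ cells and 431 CPM in cells with no gate gene, while the alpha ring stays between 920 and 990 CPM.

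Psmb8 carries the chymotrypsin-like site of the immunoproteasome in the place of Psmb5. Its level was 317 CPM in Foxp3+ Gata3+ cells, 305 CPM in Foxp3+ Gata3- cells, 418 CPM in Foxp3- Gata3+ cells, 391 CPM in type 1+ cells and 277 CPM in cells with no gate gene. It was highest in Foxp3- Gata3+ cells, where the interval of 362 to 481 CPM did not overlap the 228 to 334 CPM of cells with no gate gene. The log2 ratio of these 2 gates was 0.59 (0.25 to 0.94), and 0.30 (-0.05 to 0.65) without the cells with markers of other types. After thinning, Psmb8 was detected in 15.1% and 11.7% of the cells of these gates, with overlapping intervals of 11.3% to 19.5% and 8.22% to 16.1%, and before thinning in 32.4% and 24.6%.

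Psmb9 takes the place of Psmb6, the caspase-like site. It stood at 204 CPM (142 to 286) in type 1+ cells, against 90.6 CPM in Foxp3+ Gata3+ cells, 125 CPM in Foxp3+ Gata3- cells, 106 CPM in Foxp3- Gata3+ cells and 83.1 CPM (57.2 to 117) in cells with no gate gene. Its interval in type 1+ cells overlapped that of Foxp3+ Gata3- cells (79.5 to 188) and no other. The log2 ratio of type 1+ cells was 1.30 (0.56 to 2.03) against cells with no gate gene, from 34 and 33 counts, and 0.99 (0.32 to 1.64) against Foxp3+ cells. It was detected in 20.2% of type 1+ cells and 8.90% of cells with no gate gene, and in 7.56% (3.52% to 13.9%) and 3.91% (1.97% to 6.90%) after thinning. Counted at most once per cell, the ratio against cells with no gate gene was 1.10 (0.23 to 1.97). The body of Psmb9 overlaps that of Tap1, a peptide transporter gene on the opposite strand. The strand handling of the counting is not given in the sources used here, so reads of the 2 genes may be mixed. Where in the 2 genes the overlap lies, relative to the ends captured by oligo dT, was not examined. Psmb8 and Psmb10 likewise overlap genes on the opposite strand, Gm20496 and Gm16156. Tap1 itself was at 216 CPM in type 1+ cells and 144 CPM in cells with no gate gene, a log2 ratio of 0.59 (-0.05 to 1.22).

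Psmb10 takes the place of Psmb7, the trypsin-like site, and was thinly covered, with 119 counts in all. It lay between 59.9 and 102 CPM in the 5 gates, with overlapping intervals. Of the constitutive genes, Psmb5 ranged from 76.3 CPM in Foxp3+ Gata3- cells to 168 CPM in type 1+ cells, Psmb6 from 93.4 to 147 CPM and Psmb7 from 68.0 to 126 CPM. Summed, the 3 constitutive genes were at 316 to 403 CPM, and no comparison gave a log2 ratio whose interval left out 0.

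The share of immunosubunit counts within each pair was taken next. It moved with depth, at 64.0% in cells with 500 to 999 counts, 64.4% (60.7% to 68.1%) with 1000 to 1999 and 56.6% (51.9% to 61.1%) with 2000 or more. Whether molecular identifiers were collapsed is not given, so the share is one of counts, not of protein or of molecules. It is compared between gates only. Over all cells, Psmb8 made up 72.8% (69.4% to 76.0%) of Psmb8 and Psmb5 counts, Psmb9 49.7% (44.3% to 55.1%) of its pair and Psmb10 45.8% (39.6% to 52.0%) of its pair. The 3 pairs summed gave 61.6% (58.9% to 64.2%) over 1334 counts. The summed share was 60.4% and 58.8% in the Foxp3+ gates with and without Gata3, 65.7% in Foxp3- Gata3+ cells, 63.4% in type 1+ cells and 57.2% in cells with no gate gene.

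Foxp3- Gata3+ cells exceeded cells with no gate gene by 8.48 percentage points (1.33 to 15.6) in the summed share and by 11.4 points (2.65 to 20.2) in the Psmb8 share. The summed difference was 5.80 points (-1.50 to 13.1) without the cells with markers of other types, and -2.58 to 8.63 points in 10 draws of thinning. For the Psmb9 share, type 1+ cells had 65.4%, which was 22.5 points (4.97 to 38.0) above cells with no gate gene and 20.8 points (4.58 to 35.2) above Foxp3+ cells. The Psmb10 share differed in no comparison beyond its interval, and in the Foxp3+ cells it was 51.0% with Gata3 and 33.3% without, from 49 and 33 counts. The Psmb8 share did not follow Gata3 in both kinds of cell: within Foxp3+ cells it was 71.4% with Gata3 and 80.0% without, a difference of -8.57 points (-19.5 to 4.14). Whether the pairs differ from each other across gates was not tested.

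**Figure D3:**
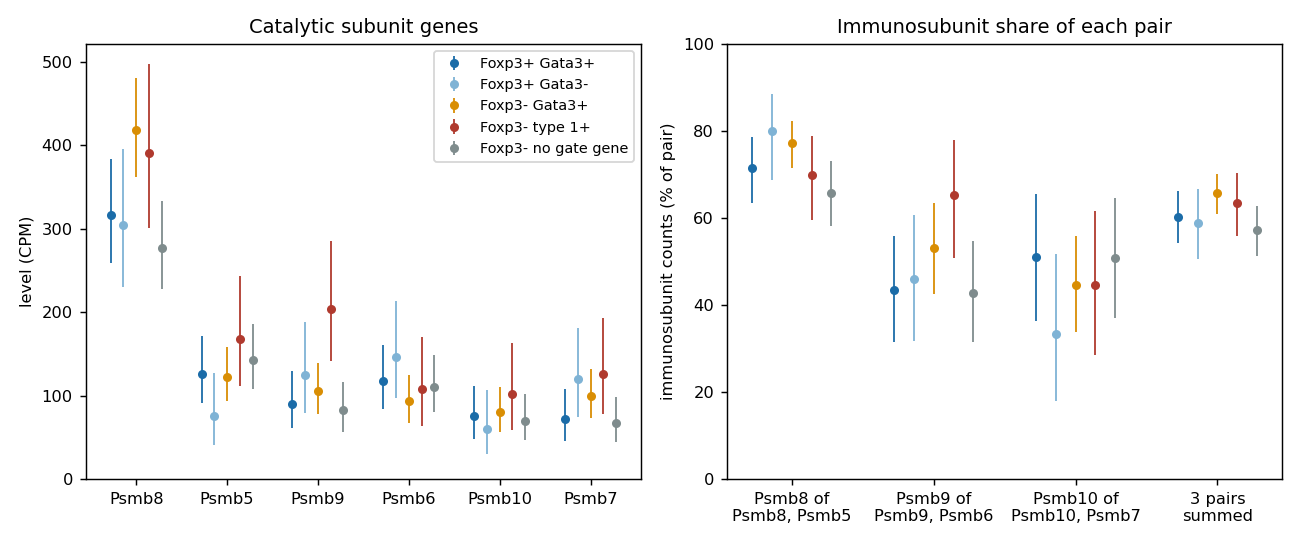
Left, level in CPM (y axis, from 0) of the 6 catalytic genes in the 5 gates, with 95% Poisson intervals. Right, counts of the immunosubunit as a percentage of its pair, with exact 95% binomial intervals: Psmb9 reaches 65.4% in type 1+ cells against 42.9% in cells with no gate gene.

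Single members were compared by counting those at least 1.5-fold apart among genes with at least 50 counts over both sides, a bound on size and not a test. For Foxp3+ against Foxp3- cells, 2 of 41 members were higher, where 10.4% of all 4790 genes were, and 2 were lower, where 11% were. The members' median log2 ratio was -0.02, beside 0.01 for all genes. The members higher in Foxp3+ cells were Psmd10, the assembly chaperone also called gankyrin, at 71.9 against 38.7 CPM with a log2 ratio of 0.89 (0.21 to 1.58), and Psme2, at 85.5 against 48.3 CPM with a ratio of 0.82 (0.20 to 1.44). Psmd10 was not even among Foxp3+ cells, with 96.6 CPM (66.1 to 136) with Gata3 and 27.2 CPM (8.85 to 63.6) without. The lower ones were Psmd2, a scaffold that binds ubiquitin shuttle proteins, at -0.63 (-1.15 to -0.14), and Psmd7, the partner of the deubiquitinase Psmd14, at -0.65 (-1.36 to 0.01). The share of members past 1.5-fold was no larger than that of all genes.

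Among the sums by role, only that of the ATPases of the regulatory particle had an interval that left out 0 by Foxp3. They summed to 666 CPM in Foxp3+ and 561 CPM in Foxp3- cells, a log2 ratio of 0.25 (0.05 to 0.44), with Psmc4 at 0.56 (0.06 to 1.04) and Psmc1 at 0.55 (0.04 to 1.04) highest and Psmc2 at -0.41 (-0.96 to 0.12) lowest. The sum was uneven within Foxp3+ cells, with 598 CPM with Gata3 and 790 CPM without, a log2 ratio of -0.40 (-0.72 to -0.08). Psmc3 was at 181 and 300 CPM in these gates, with 55 counts in 23 cells of the gate without Gata3. Psmb2, a core subunit without a catalytic site, was at -0.45 (-1.09 to 0.16) in Foxp3+ against Foxp3- cells. Intervals in that comparison also left out 0 for Psmc3 at 0.38 (0.03 to 0.73), Psmb4 at 0.41 (0.11 to 0.71) and Psme1 at -0.28 (-0.56 to -0.0049).

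Within Foxp3+ cells, 1 of 24 members was at least 1.5-fold higher with Gata3, where 11.4% of all genes were, and 2 were lower, where 9.15% were. Psmb5 was higher, by 0.73 (-0.17 to 1.72), and Psmc3 and Psmc4 were lower, by -0.73 (-1.28 to -0.17) and -0.71 (-1.47 to 0.05). Psmc3 stood at 181 CPM with Gata3 and 300 CPM without. It was detected in 19.9% (14.6% to 26.1%) of cells with Gata3 and 17.6% (11.5% to 25.2%) without, and in 7.96% and 7.63% after thinning. Whether repeat counts in a cell bear on its ratio was not tested. With each gene counted at most once per cell, Psmc3 was not past 1.5-fold. Psmb5, detected in 28 and 14 cells with and without Gata3, and Psmc4, in 25 and 19, then had fewer than 50 counts. These 2 could therefore not be called under that setting, whatever their ratio. The next highest ratios were 0.53 for Psma3, 0.47 for Psmd3 and 0.42 for Psma5, and the next lowest were -0.48 for Psmb1 and -0.47 for Psmb9. Members had a median of 0.06, beside -0.02 for all genes. When a gate gene had to have 2 counts, cells with 1 count were taken as without it, and the ratio of Psmc4 was 0.26 (-0.85 to 1.41).

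In Foxp3- Gata3+ cells against cells with no gate gene, 2 of 34 members were higher, where 13.5% of all genes were, and 1 was lower, where 8.43% were. Beside Psmb8, Psmd13, a subunit of the lid of the regulatory particle, was higher, at 112 against 63.0 CPM with a log2 ratio of 0.84 (0.13 to 1.58), and 0.27 (-0.64 to 1.22) when counted at most once per cell. Psmd2 was lower, at 108 against 174 CPM, a log2 ratio of -0.68 (-1.23 to -0.14). Psma4 at 0.58 and Psmb7 at 0.55 followed among the higher ratios, and Psme1 at -0.53 (-0.85 to -0.21), Psmd12 at -0.51 and Psmd14 at -0.45 among the lower. The median over members was -0.03, beside 0.07 for all genes.

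In type 1+ cells against cells with no gate gene, 5 of 25 members were higher, where 15.8% of all genes were, and 2 were lower, where 12.4% were. Beside Psmb9 these were Psmd4, a ubiquitin receptor, at 325 against 174 CPM with a log2 ratio of 0.90 (0.36 to 1.44), and Psmd8, a lid subunit, at 253 against 151 CPM with a ratio of 0.74 (0.14 to 1.33). The non-catalytic core genes Psmb4, at 331 against 204 CPM, and Psmb2 were also higher, by 0.70 (0.18 to 1.21) and 0.69 (-0.19 to 1.54). Psme1 and Psme3 were lower, by -0.60 (-1.08 to -0.14) and -0.59 (-1.46 to 0.21), and Psmd2 at -0.53 and Psma3 at -0.49 followed. In either direction this was 7 of 25 members, where 28.2% of all genes were past 1.5-fold, so the members' share was near that of all genes. The members' median was 0.17, beside 0.08 for all genes.

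Several of these ratios were smaller with repeat counts left out. Counted at most once per cell, Psmd4 had a log2 ratio of 0.33 (-0.49 to 1.12), Psmb4 of 0.38 (-0.34 to 1.06) and Psmd8 of 0.42 (-0.37 to 1.19). Under that setting, 0 of 13 members that kept 50 counts were 1.5-fold higher and 1 was lower. Of all genes, 7.48% were then past 1.5-fold in either direction, beside 28.2% with every count used, so the fall was not particular to members. Psmb9 and Psmb2 had fewer than 50 counts with that counting and could not be called.

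Type 1+ cells against Foxp3+ cells gave 6 of 32 members higher, where 12% of all genes were, and 3 lower, where 17.4% were. Psmb2 at 1.07 (0.20 to 1.91), Psmb9 at 0.99 and Psmd4 at 0.98 (0.46 to 1.48) led the higher ones, followed by the ATPase Psmc2 at 0.70, Psmb5 at 0.63 and Psmd14 at 0.60. The lower ones were Psmd13 at -0.87 (-1.94 to 0.07), Psmc1 at -0.84 (-1.92 to 0.10) and Psmc4 at -0.65 (-1.63 to 0.23), and Psme3 at -0.53 came next. Without the cells with cycling markers, the ratio of Psmd14 was -0.08. In either direction this was 9 of 32 members, where 29.4% of all genes were past 1.5-fold, again near the share of all genes. Members had a median of 0.05, beside -0.00 for all genes.

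**Figure D4:**
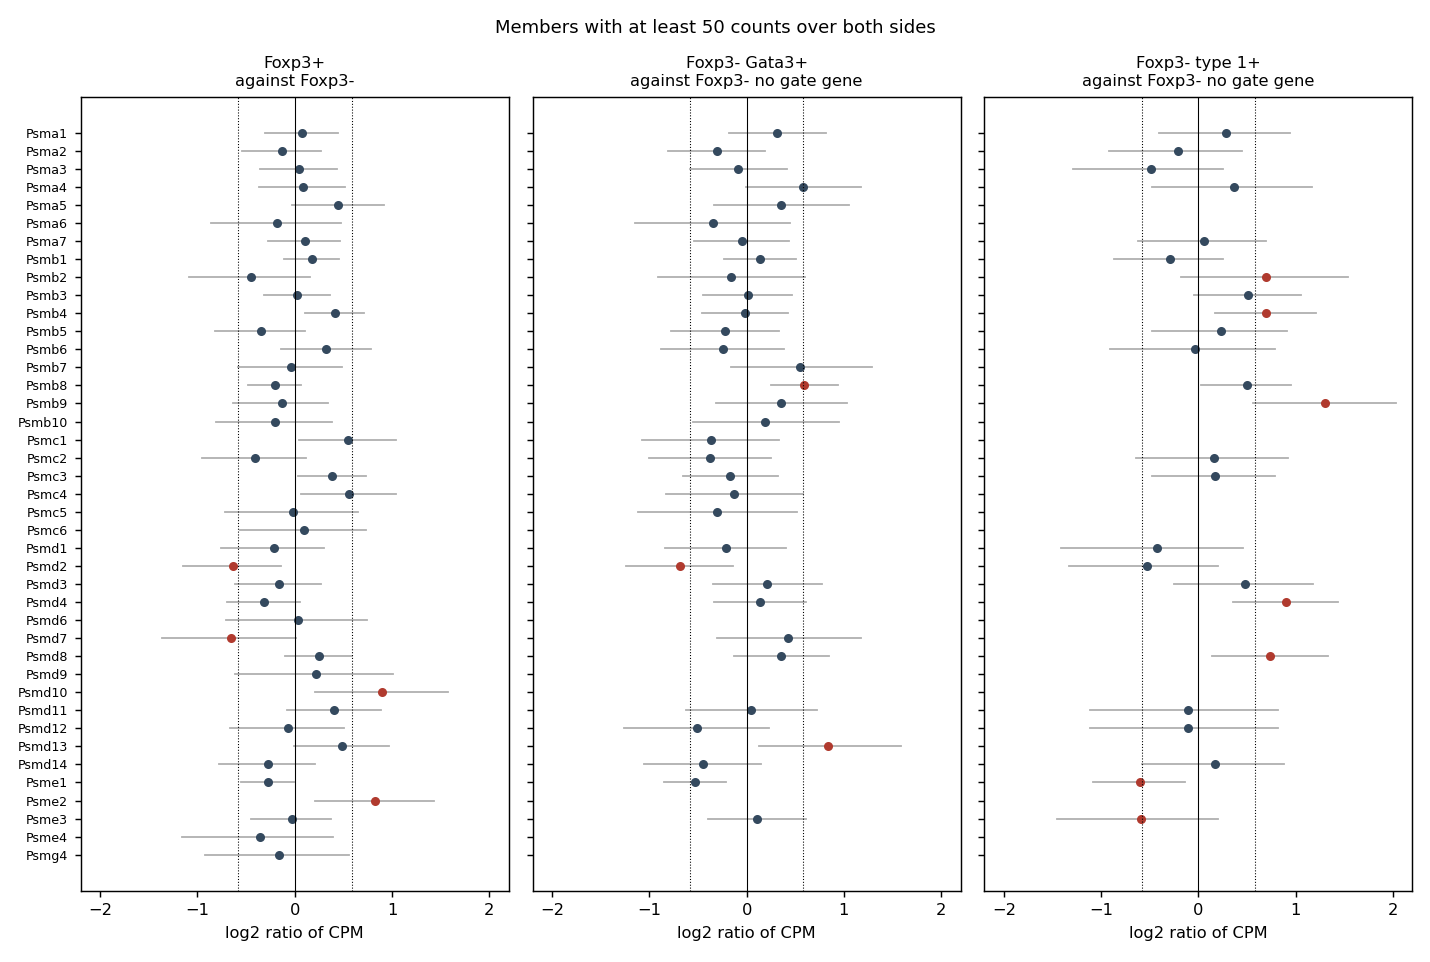
Log2 ratio of CPM (x axis) of each member with at least 50 counts over both sides (y axis) in 3 of the comparisons, with exact 95% intervals in grey. Red points are at least 1.5-fold apart (dotted lines): 4 of 41, 3 of 34 and 7 of 25 members.

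Summed activators went the other way from immunosubunits in the cells without Foxp3, but single activator genes differed in direction. The activator sum was not recalculated without the cells with markers of other cell types. The 5 Psme genes summed to 738 CPM (656 to 828) in cells with no gate gene, 569 CPM (503 to 641) in Foxp3- Gata3+ cells and 547 CPM (440 to 672) in type 1+ cells. The log2 ratios against cells with no gate gene were -0.38 (-0.62 to -0.13) and -0.43 (-0.79 to -0.09). Psme1 encodes a subunit of the interferon-inducible activator PA28 and had most of these counts. It stood at 456 CPM (392 to 528) in cells with no gate gene and at 283 to 316 CPM in each other gate, and its interval in cells with no gate gene overlapped only that of type 1+ cells (223 to 396). It was detected in 18.9% (14.5% to 23.9%) of thinned cells with no gate gene and in 11.3% to 11.9% of the others.

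Psme2, which encodes the partner of Psme1 in PA28, did not follow it. Its levels were 96.6 and 65.4 CPM in the Foxp3+ gates with and without Gata3, 46.7 CPM in Foxp3- Gata3+ cells, 84.2 CPM in type 1+ cells and 35.3 CPM (19.3 to 59.2) in cells with no gate gene. It had 94 counts, and the nearly identical copy Psme2b had 17, so reads may be split between them. In the thinned cells Psme2 had a log2 ratio of -0.14 (-1.54 to 1.12) between Foxp3+ and Foxp3- cells, so its direction was not held there. Psme3, the nuclear activator, lay between 102 and 166 CPM, and Psme4, which encodes PA200, between 31.8 and 80.6 CPM. Psmf1 had 47 counts, too few for the comparisons, with 12.1 CPM in Foxp3+ Gata3+ and 60.1 CPM in type 1+ cells.

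Genes that work with the proteasome did not share 1 direction. Of 28 partner and ubiquitin genes, 11 to 21 had 50 counts in a comparison. In Foxp3+ against Foxp3- cells, 1 of 21 was higher and 1 lower, where 10.4% and 11% of all genes were. In type 1+ cells against cells with no gate gene, 0 of 11 were higher and 1 lower, where 15.8% and 12.4% were. In type 1+ against Foxp3+ cells 2 of 14 were higher and 4 lower, where 12% and 17.4% were. Their medians in these were 0.01, -0.33 and -0.27, beside 0.01, 0.08 and -0.00 for all genes. Pomp, the maturation factor of the core, was at 499 CPM in type 1+ cells, 338 CPM in cells with no gate gene and 297 CPM in Foxp3+ cells. The log2 ratios were 0.56 (0.15 to 0.97) and 0.75 (0.34 to 1.14). Shfm1, which encodes a small subunit of the regulatory particle, had ratios of -0.49 (-0.997 to -0.0049) and -0.78 (-1.27 to -0.32) in the same comparisons. Nearest to the immunosubunits in function are the MHC class I antigen processing genes, of which 9 of 12 could be compared between type 1+ cells and cells with no gate gene. Of these, 1 was higher, namely Tap1, and 1 lower, namely Canx, an endoplasmic reticulum chaperone, and their median of 0.27 stood beside 0.08 for all genes, of which 15.8% were higher and 12.4% lower. Against Foxp3+ cells, 0 of 9 were past 1.5-fold, where 29.4% of all genes were. Above 0 were 3 of them, where 1199 of 2400 genes were, with a median of -0.24 beside -0.00. The ratios there were -0.24 (-0.36 to -0.12) for H2-K1, a class I heavy chain, and -0.56 (-0.94 to -0.19) for Tapbp, which loads peptides. In Foxp3+ against Foxp3- cells, 9 of 11 were above 0, where 2466 of 4790 genes were. None was past 1.5-fold, where 21.3% of all genes were. Their median was 0.24 beside 0.01, with H2-K1 at 0.39 (0.32 to 0.46). The immunosubunit sum had ratios of 0.52 and -0.19 in these 2 comparisons.

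B2m, the light chain of MHC class I, was at 5008 CPM in type 1+ cells and 3721 CPM in cells with no gate gene, a log2 ratio of 0.43 (0.30 to 0.55). It was at 4488 CPM in Foxp3+ and 4203 CPM in Foxp3- cells. Of the interferon response genes reported here, Ifi47 was at 241 CPM in type 1+ cells against 144 CPM in cells with no gate gene, with a log2 ratio of 0.74 (0.12 to 1.35). Gbp7 had a ratio of 0.08 (-0.63 to 0.75). Ifi27l2a had a ratio of -0.79 (-1.71 to 0.04), Bst2 of -0.81 (-1.91 to 0.16) and Igtp of -0.60 (-1.50 to 0.22), so these genes did not share 1 direction.

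The members lie on 16 chromosomes of mm10, and 24 of 50 overlap another annotated gene. Psmb8 (chr17:34197721-34201454, plus strand) and Psmb9 (chr17:34181987-34187764, minus strand) lie 9956 bases apart in the MHC region. Psme1 and Psme2 lie 5911 bases apart on chromosome 14. Promoter windows from RefSeq (GRCm38.p6, the same build as mm10) matched 42 of 50 members. The 250 bases before the start were searched on both strands for 3 sets of letters. TGACNNNGC, the core of the element bound by Nfe2l1 and its relatives, was in the windows of Psmb5, Psmb6, Psmc6, Psmd9 and Psmd12, and in 10.2% of 32851 promoters. The core of the interferon-stimulated response element, GAAA and GAAA with any 2 bases between them, was in those of Psmb3, Psmd4 and Psmd9, and in 2.98% of promoters. The palindrome TTCNNNGAA was in those of Psmb8 and Psmg1, and in 7.02% of promoters. These are matches of letters, not shown to be sites, and windows without them say nothing of the factors.

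The stretches below are those of the catalytic genes with a match and of Psmd4. Among members with at least 50 counts, only Psmb9 had a higher ratio than Psmd4 in type 1+ cells against cells with no gate gene. Each stretch is read 5′ to 3′ on the strand of the gene with the match in capitals. That of Psmb6 is chr11:70525237-70525356 on the plus strand, and that of Psmb5 chr14:54618023-54618052 on the minus strand. That of Psmd4 is chr3:95042630-95042749 on the minus strand, where the capitals are the reverse complement of the letters searched. That of Psmb8 is chr17:34198088-34198117 on the plus strand, inside an annotated exon of a longer Psmb8 transcript.
Psmb6: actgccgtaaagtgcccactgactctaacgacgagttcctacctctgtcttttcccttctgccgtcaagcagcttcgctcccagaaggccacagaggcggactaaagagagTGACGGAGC
Psmb5: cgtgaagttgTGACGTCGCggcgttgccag
Psmd4: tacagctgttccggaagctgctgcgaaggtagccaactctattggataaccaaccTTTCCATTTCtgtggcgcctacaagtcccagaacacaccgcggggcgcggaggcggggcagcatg
Psmb8: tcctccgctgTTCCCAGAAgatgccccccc
The match begins 9 bases before the start of Psmb6, 47 before that of Psmb5, 80 before that of Psmd4 and 97 before that of Psmb8. Psmb5 was lowest and Psmb6 highest in Foxp3+ Gata3- cells, at 76.3 CPM (41.7 to 128) and 147 CPM (97.0 to 214). These rest on 14 and 27 counts, and both intervals overlapped those of every other gate. Whether the letters they share, TGACNNNGC, bear on their levels was not tested.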

How the data were processed

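Counts per barcode and gene were deposited by the authors in 1 table, and TopHat2, SAMtools and the mm10 build are named in the submitters' processing notes, with no version and no account of their use. How reads were counted, with which annotation, and whether molecular identifiers were collapsed is not given in the sources used here. RNA was captured with oligo dT primers, per the labels' protocols. Since barcodes carry no sample, no count model was fitted: levels are summed counts per 1000000 with exact Poisson intervals, ratios have exact conditional intervals and shares Clopper-Pearson or, for differences, Newcombe intervals, all at 95%. The ratio step was tested on simulated Poisson counts, where 95.9% to 96.4% of intervals held the true ratio. In them, 5.99% to 10.5% of unchanged genes were past 1.5-fold. Counts of members were bunched beyond Poisson, so the simulation does not show how well the intervals hold for these data. Every gene was handled alike for the background shares. Named are the catalytic pairs, members at 0, members past 1.5-fold with at least 50 counts over both sides, and the 4 highest and 4 lowest ratios. The members and lists were chosen with earlier results of these data known. Alternatives changed the count minimum, gates, totals, depth, doublets (Scrublet, scanpy 1.11.5) and cells; 10 further draws of thinning were added after results were seen. Doublets were kept in the values reported. Positions come from GENCODE vM21. A planned comparison of protein sequences was not made, and 1 gene of the interferon list and that list's counts are not reported here. Python 3.11.15, numpy 2.4.6, scipy 1.17.1 and pandas 2.3.3 were used.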

Additional observations from a re-analysis of the deposited data

Results flagged for a closer look

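The 935 barcodes left out by the cell filter, which enter no comparison, still held 333 counts of proteasome genes, or 2348 CPM (2102 to 2614). The kept cells had 5343 CPM, and the ratio of the former to the latter was 0.439 (0.393 to 0.490). Mitochondrial genes made up 52.1% of the counts of the barcodes left out and 4.89% of those of kept cells. Per 1000000 counts without mitochondrial genes, the members stood at 4907 (4394 to 5463) in the barcodes left out and 5618 (5498 to 5741) in kept cells. The immunosubunit share of the 3 pairs was 60.3% (47.2% to 72.4%) over 38 and 25 counts in the barcodes left out, beside 61.6% in kept cells. What these barcodes hold was not tested.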

How the results depend on the processing

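Of 120 alternative values of the sums, shares and numbers of members past 1.5-fold, 99 stayed within the spread of the reported value (its interval, or 1.5 times a count) and 21 moved. Thinning moved the summed log2 ratio of type 1+ cells to -0.054 against cells with no gate gene and to 0.017 against Foxp3+ cells, and the immunosubunit share difference of Foxp3- Gata3+ cells to 0.16 points. The medians of 10 further draws were 0.09, 0.10 and 3.98 points. In the gates at 2 counts, cells with 1 count of Foxp3, of Gata3, or of Tbx21, Ifng and Nkg7 together were taken as without them. These gates gave -0.19 (-0.34 to -0.04) for the sum with Gata3 among Foxp3+ cells. They gave 0.051 for type 1+ cells against cells with no gate gene. The numbers of members past 1.5-fold were 4, 3, 3, 7 and 9 in the order of the report. A minimum of 20 counts gave 10 of 41 for Gata3 within Foxp3+ cells, 6 of 42 for Gata3 without Foxp3 and 15 of 42 for type 1+ against no gate gene, where 34.1%, 33.1% and 40.6% of all genes were past 1.5-fold, and a minimum of 100 counts gave 2 of 32 for Foxp3, 1 of 7 for Gata3 within Foxp3+ cells, 4 of 8 for type 1+ against no gate gene and 1 of 12 for type 1+ against Foxp3+, where 14.3%, 10.9%, 18.5% and 20.8% of all genes were. Counts capped at 1 gave 1 of 12, 0 of 27, 1 of 13 and 2 of 21 in the last 4 comparisons, where 6.25%, 7.79%, 7.48% and 17.4% of all genes were, and thinning gave 0 of 25, 1 of 2, 1 of 11, 1 of 2 and 1 of 4, where 19.2%, 14.7%, 14.4%, 21.2% and 25.8% were. Among 397 values of single genes and of summed immunosubunits, 370 stayed, 23 moved and 4 turned: Psme2 by Foxp3 at -0.14 after thinning, Psmc4 with Gata3 within Foxp3+ cells at 0.26 with gates at 2 counts, and, in type 1+ against Foxp3+ cells, Psmc4 at 0.16 after thinning and Psmd14 at -0.077 without cells with cycling markers. The cause was not tested. No paired analysis was possible because the barcodes carry no sample, and for the same reason no sample could be left out.

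Depth limits single members most: at 1235.5 counts per median cell, a member is seen in few cells, and the 8 members with fewer than 50 counts but at least 1 could not be compared.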
